A study of Homo sapiens with 6 samples.

Results

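The genes described here encode the core proteins of the 3 polarity modules of epithelial cells: PARD3, PARD6A, PARD6B and PRKCI of the Par module, CRB3 and PATJ of the Crumbs module, and SCRIB, DLG1, LLGL1 and LLGL2 of the Scribble module. They were chosen by name, as all probe sets to which the platform annotation gives exactly 1 of these symbols. All 10 genes were measured, with 31 of the 54613 probe sets of the array. PATJ had 6 of these, DLG1 7, PARD3 4, PARD6B, PRKCI and LLGL1 3 each, LLGL2 2, and PARD6A, CRB3 and SCRIB 1 each. A further probe set shared by LLGL1 and FLII was not counted as a member, and its difference between the groups was 0.0053.

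RNA was measured on 6 oligonucleotide arrays of DLD-1, a human colorectal adenocarcinoma cell line. Of these, 3 arrays came from the subclone labelled DLD-1Δα-Cat, a name that is not spelled out, and 3 from the subclone labelled DLD-1α-Cat. Both were grown untreated for 96 h in a gel of type I collagen at 1 mg/ml. No label says whether separate cultures were used, and p-values therefore cover the spread between these samples alone, which may be technical. Values are log2 intensities after robust multi-array averaging (RMA), and each difference is that of DLD-1Δα-Cat less DLD-1α-Cat on this scale.

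Epithelial cells keep an apical and a basolateral surface apart with these modules. Par3, Par6 and atypical protein kinase C assemble at the apical margin of cell junctions under the GTPase Cdc42, and the Crumbs complex marks the apical membrane above it. Scribble, Dlg and Lgl act on the basolateral side, and the kinase and Lgl oppose each other there. The proteins work by where they sit and how they are phosphorylated, which RNA levels do not show.

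CTNNA1 encodes αE-catenin, to which the α-Cat of the group labels is taken to refer. It was lower in DLD-1Δα-Cat by 1.52 (limma adjusted p = 0.000838). The arrays thus went the way of this reading of the labels, with the RNA reduced and not lost. All 10 markers of intestinal epithelium lay above the median of all probe sets (6.12). Of the markers of other cell types, 2 of 6 fibroblast, 0 of 3 endothelial and 0 of 2 measured leukocyte genes did. The level does not mean that the subclones were alike in these markers. Of the 10 epithelial markers 1 passed, KRT20, at 13.02 in DLD-1Δα-Cat against 8.13 in DLD-1α-Cat (limma adjusted p = 1.49e-05).

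No polarity gene passed the test for a difference between the subclones in the fit of all 19775 genes, in which each gene is represented by its brightest probe set. With limma's moderated test and a Benjamini-Hochberg adjusted p below 0.05, 0 of 10 passed, against 5.52% of all genes, and 0 of 10 had an unadjusted p below 0.05, against 20.8%. Their differences lay between -0.24 and 0.19, 5 above and 5 below zero, with a median of -0.029 beside -0.030 for all genes. The median size of the difference, sign aside, was 0.164 for the polarity genes and 0.165 for all genes. The largest, that of PARD3, came to 1.18-fold. The 95% confidence intervals reached 1.50-fold at most in PARD3 and 1.39-fold in the next gene, LLGL1, so a change of 2-fold in any of the 10 lay outside its interval.

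**Figure D1:**
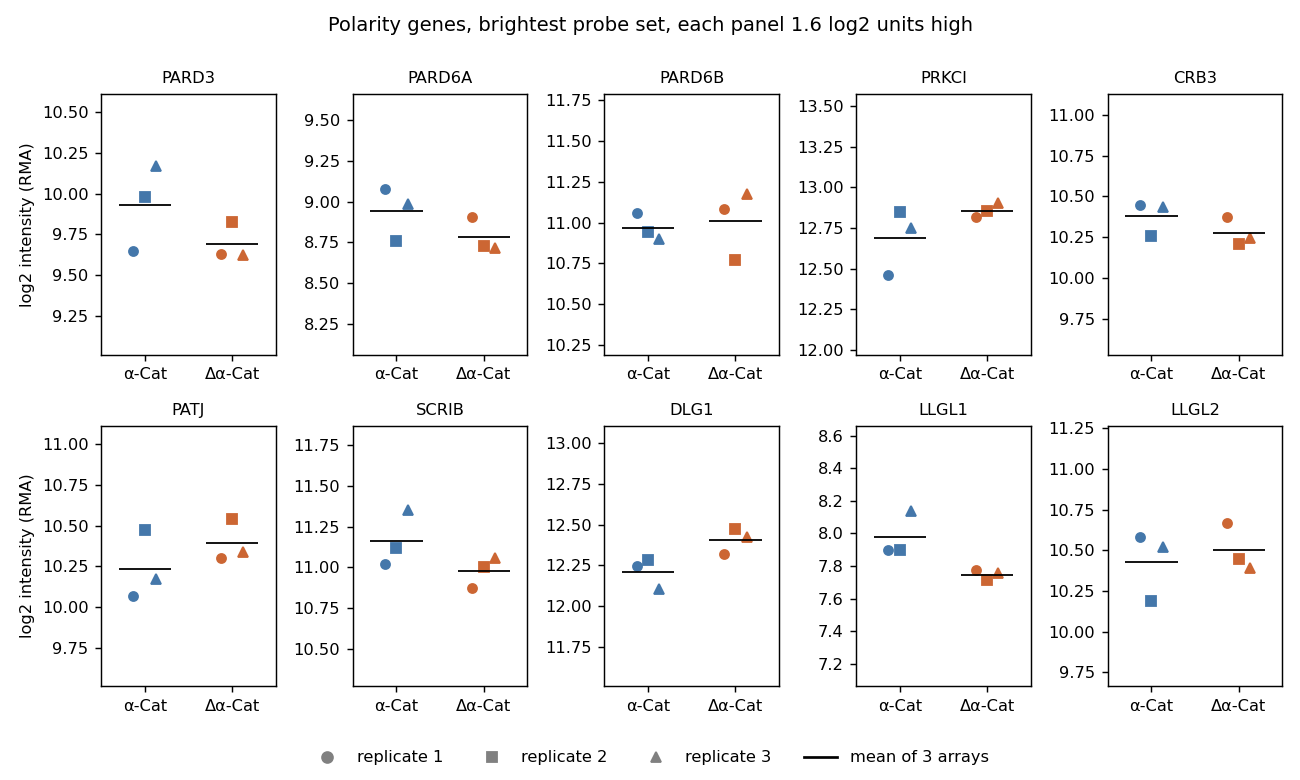
Log2 intensity of the brightest probe set of each polarity gene on the 3 DLD-1α-Cat (blue) and 3 DLD-1Δα-Cat (orange) arrays, with the replicate number as the symbol and the group mean as a line. The groups overlap in 8 panels and are apart in DLG1 and LLGL1, where the gap between means is 0.19 and 0.23.

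In the Par module, PARD3 encodes a scaffold with PDZ domains that sets up the apical margin. Its brightest probe set read 9.63, 9.83 and 9.62 on replicates 1, 2 and 3 of DLD-1Δα-Cat, and 9.65, 9.98 and 10.17 on those of DLD-1α-Cat. The ranges overlapped, since replicate 1 of DLD-1α-Cat stood with the other subclone, and the difference was -0.24 (SE 0.149, limma adjusted p = 0.405). The other 3 probe sets of PARD3 differed by 0.065, -0.29 and 0.046. PARD6A and PARD6B encode Par6 proteins, the adaptors that join Cdc42 to the kinase. PARD6A stood at 8.90, 8.72 and 8.72 in DLD-1Δα-Cat against 9.08, 8.76 and 8.99 in DLD-1α-Cat, which is a difference of -0.16 (SE 0.119, limma adjusted p = 0.481). PARD6B stood at 11.09, 10.77 and 11.18 against 11.06, 10.94 and 10.90, a difference of 0.045 (SE 0.129, limma adjusted p = 0.866). The 2 subclones thus overlapped for both Par6 genes. PARD6B rests on this probe set, because its others, at 3.81 to 4.07 in DLD-1α-Cat, lay in the dim part of the array.

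PRKCI encodes the atypical kinase PKCι, the enzyme of the module. It read 12.82, 12.85 and 12.90 in DLD-1Δα-Cat against 12.46, 12.85 and 12.75 in DLD-1α-Cat. The difference of 0.17 (SE 0.122, limma adjusted p = 0.466) was 0.057 without replicate 1 of DLD-1α-Cat, the lowest of the 6 arrays. The gene that encodes the second atypical kinase, PRKCZ, differed by 0.26 (SE 0.121, limma adjusted p = 0.282), and CDC42 by -0.11 (limma adjusted p = 0.538).

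In the Crumbs module, CRB3 encodes the short transmembrane Crumbs of epithelia. Its probe set read 10.38, 10.21 and 10.24 in DLD-1Δα-Cat against 10.45, 10.26 and 10.44 in DLD-1α-Cat. The groups overlapped and the difference was -0.10 (SE 0.103, limma adjusted p = 0.602, 95% interval -0.34 to 0.14). PATJ encodes a scaffold with many PDZ domains that is tied to Crumbs through PALS1. Its brightest probe set read 10.30, 10.54 and 10.34 against 10.07, 10.47 and 10.17, a difference of 0.16 (SE 0.135, limma adjusted p = 0.548). PALS1 itself differed by -0.13 (limma adjusted p = 0.503).

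PATJ was the gene whose probe sets spread most in both directions. Probe set 240570_at read 7.60, 7.37 and 7.69 in DLD-1Δα-Cat against 7.90, 7.83 and 8.46 in DLD-1α-Cat, without overlap. Its difference of -0.51 (SE 0.187) had an unadjusted p of 0.0285 and an adjusted p of 0.247 in the limma fit of all probe sets. Probe set 214493_s_at also did not overlap, at -0.25 (limma adjusted p = 0.379), while the other 4 differed by -0.020 to 0.27. Whether the probe sets of a gene differ from each other in their response was tested with limma's diffSplice over the 10523 genes with several probe sets, of which 3.72% passed. PATJ did not pass (adjusted p = 0.806), and neither did any of the other 6 polarity genes with several probe sets (adjusted p from 0.636 to 1.00).

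In the Scribble module, SCRIB encodes the scaffold that gives it its name, with leucine-rich repeats and PDZ domains. It read 10.87, 11.00 and 11.06 in DLD-1Δα-Cat against 11.02, 11.12 and 11.35 in DLD-1α-Cat, an overlapping difference of -0.18 (SE 0.119, limma adjusted p = 0.417). DLG1 encodes a membrane-associated guanylate kinase of the lateral membrane. It stood at 12.32, 12.47 and 12.43 in DLD-1Δα-Cat against 12.25, 12.28 and 12.10 in DLD-1α-Cat. These ranges did not overlap, but the difference of 0.19 (SE 0.0999) had a limma adjusted p of 0.321. The DLG1 probe sets lay above zero in 6 of 7 cases, from -0.0071 to 0.54, and 2 of them, 202514_at at 0.33 and 217208_s_at at 0.54, had unadjusted p values of 0.0256 and 0.0188. Their adjusted p values in the limma fit of all probe sets were 0.235 and 0.203.

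LLGL1 and LLGL2 encode Lgl proteins, WD-repeat proteins that the atypical kinase phosphorylates and keeps off the apical cortex. LLGL1 read 7.77, 7.71 and 7.76 in DLD-1Δα-Cat against 7.90, 7.90 and 8.14 in DLD-1α-Cat. Every DLD-1Δα-Cat array was below every DLD-1α-Cat array, and the difference of -0.23 (SE 0.104, limma adjusted p = 0.262) had the lowest adjusted p of the 10 genes. Its other probe sets, both dim, stood at -0.46 and -0.35 with adjusted p of 0.355 and 0.372. LLGL2, the paralog of many epithelia, read 10.67, 10.45 and 10.39 against 10.58, 10.19 and 10.52. These values overlapped and differed by 0.072 (SE 0.139, limma adjusted p = 0.799), and its second probe set by 0.19.

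No single probe set of these genes passed either. Of the 31 probe sets 0 passed in the limma fit of all 54613, where 2.45% passed, and 3 had an unadjusted p below 0.05, against 15.9% of all. The groups did not overlap in 6 of 31 probe sets, against 22.1% of all, and in 2 of 10 genes, against 27.2%. Differences ran from -0.51 to 0.54 with a median of 0.046. Of the 31, 10 lay below the median level, and a 2-fold change lay inside the interval of PATJ 214705_at, DLG1 202516_s_at and DLG1 230229_at.

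**Figure D2:**
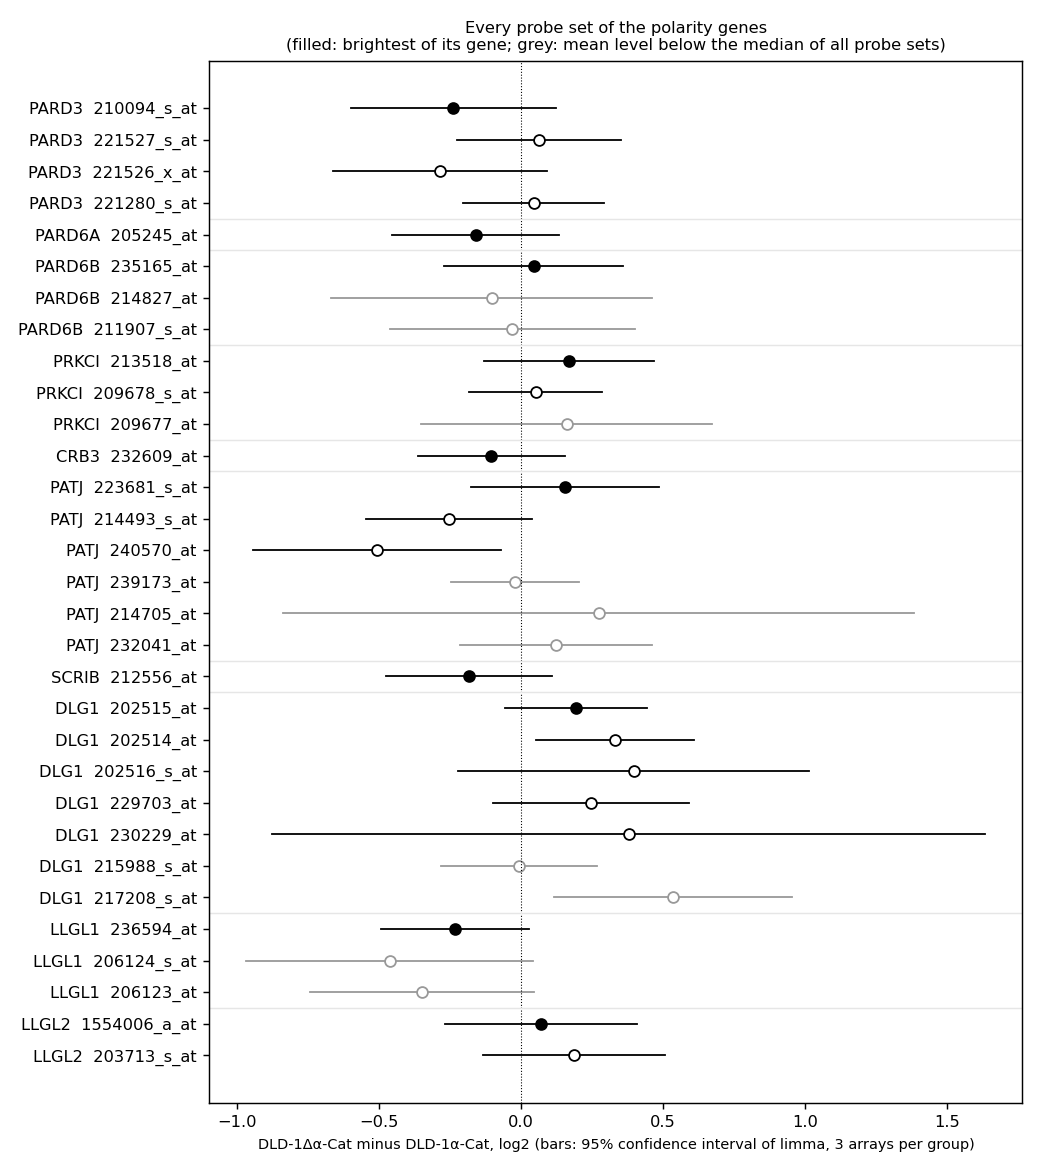
Difference of every polarity probe set (DLD-1Δα-Cat minus DLD-1α-Cat, log2, with limma's 95% confidence interval over 3 arrays per group), grouped by gene, with the brightest of each gene filled and dim ones in grey. The 3 intervals that leave zero out are those of PATJ 240570_at and DLG1 202514_at and 217208_s_at, and none of these passed after adjustment; DLG1 230229_at has the widest interval, -0.88 to 1.64.

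In the probe sets with the widest intervals, replicates stood further apart than subclones. DLG1 230229_at read 6.05, 7.06 and 6.03 on replicates 1, 2 and 3 of DLD-1Δα-Cat and 4.95, 7.14 and 5.91 on those of DLD-1α-Cat. PATJ 214705_at read 5.41, 6.03 and 5.36 against 4.23, 6.28 and 5.47. In both probe sets replicate 2 was the highest array of either subclone and replicate 1 of DLD-1α-Cat the lowest of all. Across the 31 probe sets, which share the arrays and in part the genes, an array's deviations from its subclone's mean correlated with those of the array of the same number at 0.257, 0.726 and 0.0301 for replicates 1, 2 and 3. Replicate 1 of DLD-1α-Cat was the array farthest from its group's mean in 14 of 31 probe sets, beside 42.7% of all genes. With the replicate number as a block in the model, 0 of 10 genes and 0 of 31 probe sets passed, and the lowest limma adjusted p of a probe set was 0.127, that of PATJ 240570_at.

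**Figure D3:**
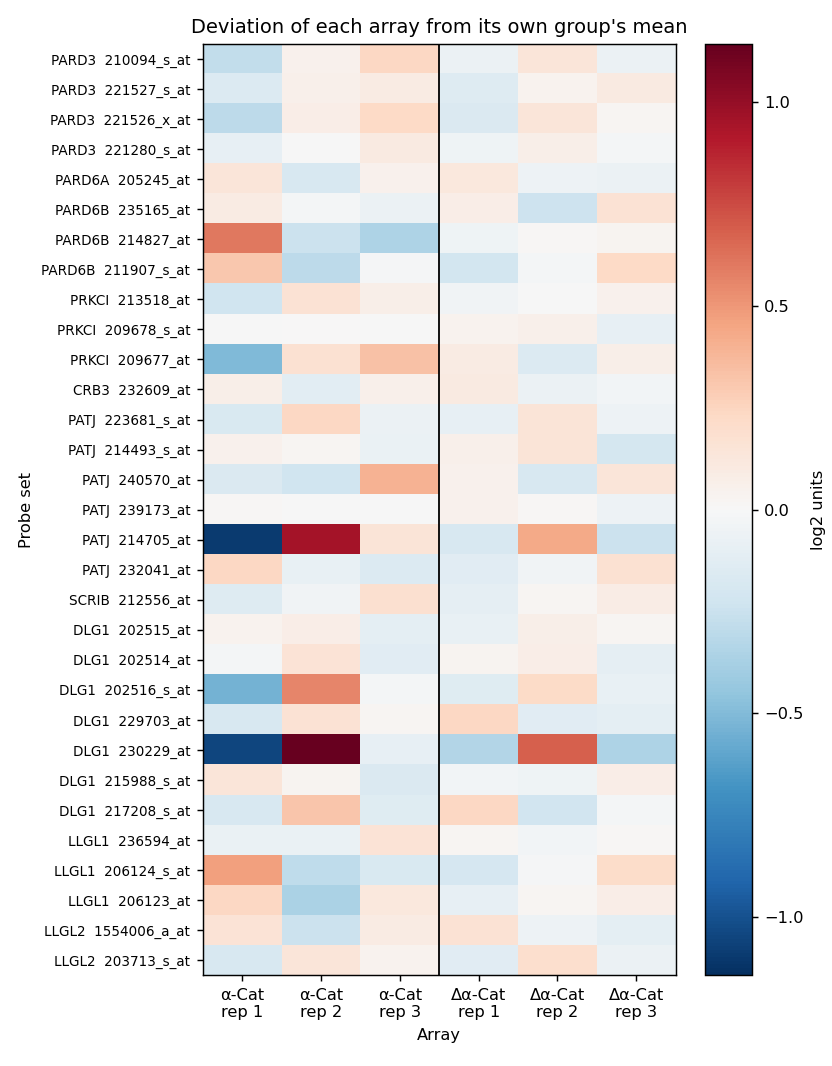
Deviation in log2 units of each array (columns) from the mean of its own subclone, for the 31 polarity probe sets (rows), in red where the array is above the mean and in blue where it is below. Replicate 1 and replicate 2 of DLD-1α-Cat carry the strongest colours, with standard deviations over the rows of 0.360 and 0.328, against 0.129 to 0.181 on the other 4 arrays.

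ZEB1, SNAI1, SNAI2 and ZEB2 encode repressors of epithelial genes that bind the E-box CAGGTG, and CRB3, PATJ and LLGL2 are known targets of ZEB1. RefSeq promoters (GRCh38.p14, 250 bases before to 50 after a start) were available for 6 of the 10 genes, and 4 of these, CRB3, PATJ, PARD6A and DLG1, held CAGGTG on either strand (CACCTG on the other) in at least 1 promoter. Counted by promoter, 4 of 10 held it, and DLG1 did in 1 of its 5. Of all 35116 promoters of this length 20.6% held it, 0.635% held it at least 3 times and 0.094% at least 5 times. The CRB3 promoter held 5 and the PATJ promoter 3, and both are shown for that reason, in the direction of transcription (plus strand, chr19:6464021-6464320 and chr1:61742230-61742529), with the motif in capitals.
CRB3: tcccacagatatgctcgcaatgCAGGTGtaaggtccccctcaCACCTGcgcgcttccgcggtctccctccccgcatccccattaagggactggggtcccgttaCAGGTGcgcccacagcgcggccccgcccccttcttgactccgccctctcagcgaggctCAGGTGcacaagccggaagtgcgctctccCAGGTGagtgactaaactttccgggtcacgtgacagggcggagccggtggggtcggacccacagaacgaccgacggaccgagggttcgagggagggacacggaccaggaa
PATJ: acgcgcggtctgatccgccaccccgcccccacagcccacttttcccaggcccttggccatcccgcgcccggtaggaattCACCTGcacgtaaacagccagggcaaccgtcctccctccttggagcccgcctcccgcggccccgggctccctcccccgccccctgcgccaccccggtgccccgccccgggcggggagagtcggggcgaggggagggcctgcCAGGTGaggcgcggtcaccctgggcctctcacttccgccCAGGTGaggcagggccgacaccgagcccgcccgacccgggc
Counted from the start site, the motifs of CRB3 begin at -228, -208, -147, -89 and -60 and those of PATJ at -171, -30 and 10. A match of letters is a description and does not show that a factor binds there.

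Of the 4 repressors, ZEB1 was higher in DLD-1Δα-Cat. It read 6.09, 6.61 and 6.62 there and 4.25, 5.34 and 3.84 in DLD-1α-Cat, without overlap, a difference of 1.96 (SE 0.364, limma adjusted p = 0.0253). By their brightest probe sets CRB3, PATJ and LLGL2 differed by -0.10, 0.16 and 0.072. The PATJ probe sets went both ways, with 240570_at at -0.51, 214493_s_at at -0.25 and the other 4 from -0.020 to 0.27. Whether ZEB1 acts on these genes here was not tested. The ZEB1 call rests on 1 of its 4 probe sets, the others standing at -0.35 to 0.15 (diffSplice adjusted p = 0.00282). It was lost in 4 of the 6 fits that left out an array (limma adjusted p from 0.0664 to 0.0942). These were the fits without replicate 2 or 3 of DLD-1Δα-Cat or replicate 1 or 3 of DLD-1α-Cat. They called 2.24% to 4.1% of all genes, beside 5.52% in the main fit. SNAI1, SNAI2 and ZEB2 differed by -0.30, 0.074 and -0.014, none with an adjusted p below 0.309, and all 4 genes were below the median level.

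Outside the core, the other polarity genes were read from 4 lists of paralogs, partners and regulators, 50 genes in all. In the gene fit 3 of 50 passed, all 3 higher in DLD-1Δα-Cat, against 3.84% of all genes that were higher, and 0 were lower, against 1.67%. The median difference of the 50 was 0.026. By module, 2 of 16 genes passed around Par, 0 of 14 around Crumbs, 0 of 15 around Scribble, and 1 of 5 in the link to the mitotic spindle. With the replicate number as a block 6 of 50 passed, these 3 with TIAM1, DLG4 and VANGL2, against 7.39% of all genes. The second probe sets of TIAM1 and DLG4 differed by -0.17 and -0.028.

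The genes that passed in the main gene fit were a second Par3, a further Par6 and a Par3 partner. The first 2 did not pass in the limma fit of all probe sets (adjusted p = 0.0633 and 0.0520). PARD3B, the paralog of PARD3, read 8.04, 8.38 and 8.66 in DLD-1Δα-Cat against 7.18, 7.74 and 7.28 in DLD-1α-Cat, a rise of 0.96 (SE 0.200, limma adjusted p = 0.0387) or 1.94-fold. PARD6G, another Par6 gene, read 8.41, 8.40 and 8.57 against 7.14, 7.67 and 7.83, a rise of 0.91 (SE 0.179, limma adjusted p = 0.0306). INSC encodes Inscuteable, which binds Par3 and the spindle-orienting protein LGN, and read 6.72, 6.69 and 6.98 against 5.01, 5.72 and 5.71. It rose by 1.32 (SE 0.205, limma adjusted p = 0.0137), or 2.49-fold. Neither this gene nor the other 2 overlapped between the subclones, but they were picked by the test, which makes this likely. Of the 50 genes 14 did not overlap, against 27.2% of all genes.

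The paralogs were set against the core genes array by array, a comparison chosen after their values were seen. The log2 ratio of PARD3B to PARD3, centred on its mean over the 6 arrays, was 0.60 ± 0.324 in DLD-1Δα-Cat against -0.60 ± 0.329 in DLD-1α-Cat (SD, n = 3 each). The ratio of PARD6G to PARD6A differed by 1.07 and that to PARD6B by 0.87. These values are a description, with no test, since the differences of PARD3B and PARD6G were known when the pairs were chosen.

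The rises of PARD3B and PARD6G each rest on 1 probe set. In the limma fit of all probe sets their adjusted p values were 0.0633 and 0.0520, the other probe sets of PARD3B stood at -0.29 to 0.41 and those of PARD6G at -0.35 and -0.14, and the probe sets differed from each other (diffSplice adjusted p = 0.0349 and 0.00820). With the probe sets of a gene averaged, PARD3B differed by 0.30 (limma adjusted p = 0.183) and PARD6G by 0.14 (limma adjusted p = 0.497), and neither passed. PARD3B passed in 2 of the 6 fits that left out an array and PARD6G in 3, and these 6 fits called 2.24% to 6.08% of all genes. INSC passed in 5, all but the fit without replicate 3 of DLD-1Δα-Cat (limma adjusted p = 0.0539). INSC has only 1 probe set, so no second one could be set beside it. Its DLD-1α-Cat values, 5.01, 5.72 and 5.71, all lay below the median level of 6.12, so its fold change starts from a dim baseline.

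FRMD4A, which encodes a FERM-domain scaffold of the Par3 complex, changed most of all these genes where every probe set was read, and it is named after its values were seen. Probe set 225163_at read 7.54, 7.74 and 7.81 in DLD-1Δα-Cat against 4.84, 4.52 and 5.13 in DLD-1α-Cat. The subclones were far apart, and the difference was 2.87 (SE 0.169, limma adjusted p = 0.000426 over all probe sets), or 7.29-fold. Probe sets 225168_at and 225167_at differed by 2.67 and 2.35. The DLD-1α-Cat values of these 3 probe sets all lay below the median level of 6.12, so their fold changes start from a dim baseline. The brightest of its 8 probe sets, 208476_s_at, stood at 6.39 in both subclones and differed by -0.0065, so the gene fit did not call FRMD4A. The remaining 4, all below the median level, differed by -0.42 to 0.24. The mean of its probe sets differed by 1.00 (limma adjusted p = 0.00132), and the probe sets differed from each other (diffSplice adjusted p = 1.81e-15). Of the 152 probe sets of the 50 genes, 4 passed, all higher, beside 1.72% of all probe sets: these 3 and that of INSC.

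**Figure D4:**
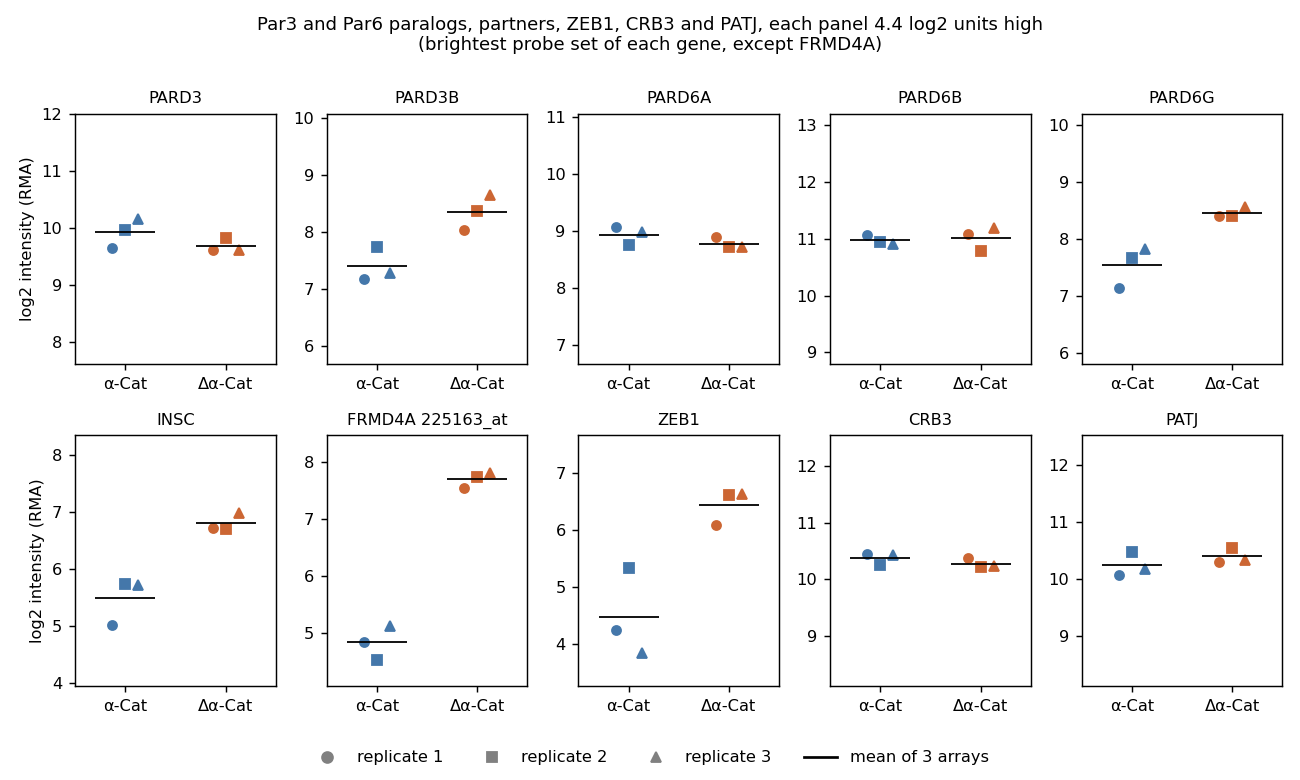
Log2 intensity by array of PARD3, PARD6A and PARD6B beside their paralogs PARD3B and PARD6G, of INSC, FRMD4A (probe set 225163_at), ZEB1, CRB3 and PATJ, with symbols as replicate numbers and lines as means of 3 arrays, DLD-1α-Cat in blue and DLD-1Δα-Cat in orange. The subclones are apart in PARD3B, PARD6G, INSC, FRMD4A and ZEB1 and overlap in PARD3, PARD6A, PARD6B, CRB3 and PATJ.

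The remaining paralogs of the core genes did not pass. Among Crumbs genes CRB1 differed by -0.16 and CRB2 by 0.031, and the PATJ paralog MPDZ by -0.055. Among the Dlg genes DLG2 differed by -0.22, DLG3 by 0.041, DLG4 by 0.58 and DLG5 by 0.037, with limma adjusted p values of 0.428, 0.862, 0.111 and 0.863. DLG4 is the one of these that passed with the replicate block (limma adjusted p = 0.0391), by its brightest probe set, while its second probe set differed by -0.028. CRB1, MPDZ and DLG2 lay below the median level.

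The 3' over 5' signal of the β-actin controls, a measure of RNA integrity, also separated the subclones. It was 5.20 ± 0.159 (log2, SD, n = 3) in DLD-1Δα-Cat against 4.69 ± 0.291 in the other, without overlap. The exact permutation p of 0.1 is the smallest that 3 arrays per group allow. The part of this ratio in these results was not tested beyond a refit. The same ratio of the GAPDH controls overlapped, at 0.69, 0.82 and 0.74 in DLD-1Δα-Cat and 0.51, 0.79 and 0.67 in the other subclone. When the β-actin ratio entered the model as a covariate, which was decided after the data had been seen, 0 of 10 core genes and 0 of 50 other genes passed, against 0.425% of all genes, and the differences of PARD3B, PARD6G and INSC were 0.82, 1.25 and 1.62. ZEB1 then stood at 1.08 (limma adjusted p = 0.616).

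By the profile over the 6 arrays, the genes nearest to PARD3, the member with the largest difference, were CLCN4, a chloride/proton exchanger, and VARS2, a mitochondrial valyl-tRNA synthetase. Their root mean square difference from PARD3, each gene centred on its own mean, was 0.0294 and 0.0316 log2 units, against a median of 0.268 over all genes. They were picked as the nearest of all genes, so values far below the median follow from the choice. PARD3 itself did not pass.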

How the data were processed

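Biotin-labelled RNA of 6 samples was hybridised to Affymetrix arrays. Per the submitters' processing notes, the authors used RMA in Affymetrix Expression Console, and the deposited values are log2 intensities. No version is given. The method corrects background, equalises the distributions of the arrays and combines the probes of a set, which hides any shift common to all genes. No detection calls were used, and dim values cannot be told from background.

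Control probe sets (62) were dropped. Of the other 54613, the platform annotation (2016) pairs 41091 with 1 symbol and 1801 with several, and 11721 are unnamed. By gene ID 41037 matched RefSeq (GRCh38.p14, names only). The brightest probe set stood for each of 19775 genes, and all probe sets were also fitted, with limma 3.58.1 in R 4.3.3 (lmFit, eBayes, two-sided, adjusted p below 0.05). Intervals are limma's at 95%. The number of arrays limits the precision. Scripts were tested on simulated data.

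The members and lists were chosen with earlier results of these data known. Named by rule were the members, CTNNA1, passing genes of the polarity lists, the 4 repressors and the 2 profiles nearest to the member with the largest difference. FRMD4A, VANGL2 and TIAM2 were described after their values were seen. Others complete a count, or are paralogs or partners of the members. No label pairs the arrays, and the main fits did not pair them. Same-numbered arrays had correlated deviations over genes (0.225, 0.376 and 0.122), and arrays of different numbers were not compared. A block on the titles' numbers was therefore an alternative, which rests on the data rather than on a stated design.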

Additional observations from a re-analysis of the deposited data

How the results depend on the processing

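The count of core genes that passed stayed at 0 under the alternatives of normalization, centring, leaving out dim probe sets, variance model, array weights, replicate block, choice of probe set, an adjusted p below 0.1, the β-actin ratio and leaving out each array. The count of their probe sets stayed at 0 under these, apart from the choice of probe set, which does not apply to it, and with only the 21 brighter ones left where dim ones were dropped. Member adjusted p values ran from 0.122 to 0.997 over 16 alternative fits. No core gene had probe sets that differed from each other by diffSplice under any alternative run. Of 160 member differences in these fits 9 turned sign, in 5 genes. Many of the 160 could not turn. Leaving out dim probe sets, trend and robust estimation, no moderation and the block all left the member differences as they were. With probe sets averaged per gene PARD6B was -0.029 and PATJ -0.038, with probe sets ending in _at preferred PATJ was -0.51, and with the β-actin ratio CRB3 was 0.0046, PATJ -0.043 and SCRIB 0.032. Without one array, PARD6B lay between -0.038 and 0.16 and LLGL2 between -0.050 and 0.15. The count of other polarity genes, 3, was 5 without dim probe sets, with array weights or at an adjusted p below 0.1, and 6 with trend and robust estimation, with the replicate block or with _at probe sets preferred. The share of all genes called moved too, to 9.76% without dim probe sets, 8.2% with array weights, 8.67% with trend and robust estimation and 7.39% with the block, from 5.52%, and was 5.16% with the _at preference, 0.582% without moderation and 0.425% with the β-actin ratio. With probe sets averaged the count was again 3, with FRMD4A and VANGL2 in place of PARD3B and PARD6G. The count was 0 without moderation and with the β-actin ratio, and 1 to 4 without one array. It was 1 without replicate 2 or 3 of DLD-1Δα-Cat, where 2.24% and 2.49% of all genes were called. Over all fits without one array this share ran from 2.24% to 6.08%. For an adjusted p below 0.1 no share of all genes is given. The cause of these changes was not tested. CTNNA1 was -1.56 with the β-actin ratio (limma adjusted p = 0.0667) and -0.0056 where the _at preference picked its dimmest probe set, and lay between -1.60 and -1.41 without one array. Over all 19775 genes the count of calls ran from 84 with the β-actin ratio to 1714 with trend and robust estimation, beside 1091. The replicate block changed no call of a core gene. PARD6B, PRKCI, PATJ, DLG1 and LLGL1 have probe sets below the median level.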

Other observations

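Planar polarity and Rac regulators showed further values. VANGL2, a transmembrane protein of planar cell polarity, averaged 10.33 ± 0.195 (SD, n = 3) in DLD-1Δα-Cat against 9.39 ± 0.472 (SD, n = 3) in the other subclone, a difference of 0.95 with a limma adjusted p of 0.0638. It passed with the replicate block (limma adjusted p = 0.0276). TIAM2, an exchange factor for Rac, had probe sets at -0.39 and 0.50 that differed from each other (diffSplice adjusted p = 0.00717), so the direction of the gene depended on the probe set read.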
